A study of Homo sapiens with 6 samples.

Results

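Nuclear receptors were followed in Huh-7 cells that overexpressed the RNA demethylase ALKBH5, as a list of 36 receptor genes matched to the expression tables by Entrez gene identifier. Of these, 34 were in the tables, among 18030 protein-coding genes in all; NR0B1 and RXRG were not analysed here. Huh-7 is a line from a human hepatocellular carcinoma, and ALKBH5 removes the methyl group of N6-methyladenosine from RNA. The oeALKBH5 group (3 libraries) was Huh-7 electroporated with an ALKBH5 expression plasmid, with 3 pulses of 1250 V for 20 ms, and RNA was taken 60 h later. The control group (3 libraries) was Huh-7 without ALKBH5 overexpression; the labels give the same treatment text beside it, and the series design names parental cells, so whether controls were electroporated or had an empty plasmid is not stated. The submitters label the libraries of each group as biological replicates 1 to 3. What differed between replicates (culture, day or transfection) is not stated, so p-values measure only the spread between these libraries, part of which may be technical.

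Nuclear receptors are transcription factors that, in most cases, bind a small lipid-soluble ligand in one domain and DNA in another, and switch between corepressors and coactivators when the ligand is bound. Many of the metabolic receptors bind DNA as heterodimers with a retinoid X receptor (RXR), whereas steroid receptors act mostly as homodimers and several orphan receptors act alone or without a known hormone. In hepatocytes they tie bile acid, cholesterol, fatty acid, retinoid, thyroid hormone, glucocorticoid and drug signals to the genes that make, transport and degrade those compounds.

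Each oeALKBH5 library held between 18607084 and 18826479 estimated counts in all, each control library between 19265686 and 19378030, and the receptors took between 0.147% and 0.159% of them. ALKBH5 mRNA held 169, 133 and 110.4 CPM (estimated counts scaled to a common library size by TMM) in oeALKBH5 libraries and 70.5, 74.2 and 75.5 CPM in control libraries, a log2 fold change of 0.90 (edgeR, SE 0.177, adjusted p = 0.0154); the adjusted p was 0.0529 without control replicate 2 and 0.0589 without control replicate 3. On the second principal component (12.8% of variance) oeALKBH5 replicate 1 stood at 18.2, against -6.29 and -15.0 for the other oeALKBH5 libraries. Over all 14168 tested genes, 2948 passed as higher in oeALKBH5 and 3114 as lower. With library size alone in place of TMM these counts were 4266 and 2047, and on log2(FPKM + 1) they were 3535 and 1977.

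About as large a share of the receptor genes moved as of all genes, in both directions and mostly by small amounts. Receptors of fatty acids, vitamin D and thyroid hormone were among those that fell, with PPARD and VDR down by about the same amount, and the receptor-like repressor NR0B2 fell as well. The bile acid receptor NR1H4, PPARG, RXRB and 4 receptors with no settled hormone rose, and the scarce immediate early receptor NR4A3 had the largest fold change. Of 32 receptors tested, 14 passed at an adjusted p under 0.05 in edgeR's quasi-likelihood test, 43.75% against 42.8% of all genes tested. Of these, 8 were higher (25% of the receptors tested, against 20.8% of all genes) and 6 lower (18.75%, against 22% of all genes). The receptors' share of calls was therefore near the background in either direction. CPM did not overlap between the groups for 18 of the 32 (56.25%), against 52.8% of all genes, and for 13 of the 14 that passed. The median log2 fold change was 0.057 over the receptors and 0.0062 over all genes, and the median of its absolute value was 0.17 over the receptors and 0.19 over all genes. Under library size alone 12 receptors were higher and 5 lower, on log2(FPKM + 1) 8 and 3, and without oeALKBH5 replicate 2 only 4 were higher and 5 lower.

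**Figure D1:**
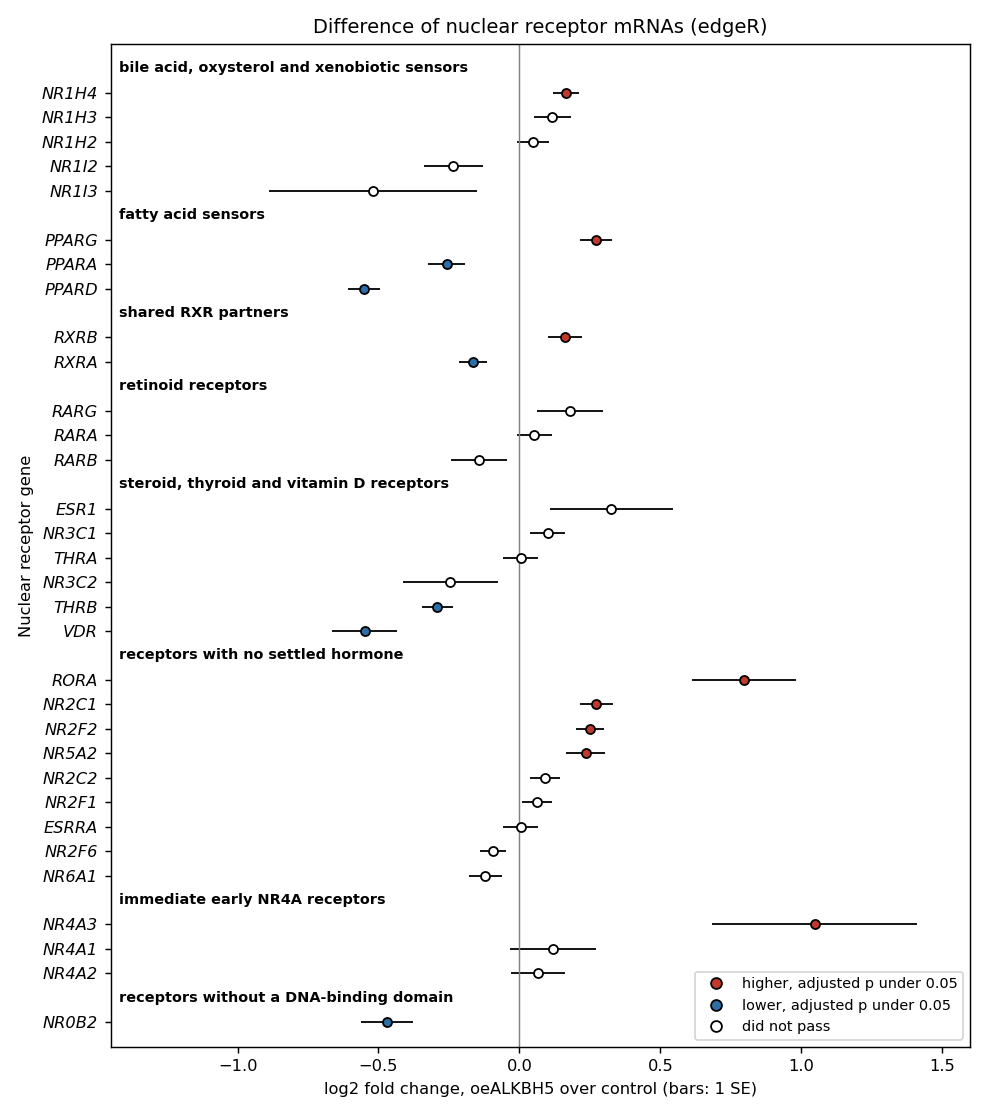
Log2 fold change (oeALKBH5 over control, x axis) of each of the 32 tested receptors, grouped by role down the page, with bars of 1 SE from edgeR. Filled points passed at an adjusted p under 0.05; PPARD at -0.55 and VDR at -0.55 lie lowest among them, and NR4A3 at 1.05 lies highest with a wide bar.

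Levels between receptors were compared as FPKM (read fragments corrected for the length of a transcript and for depth), summed over the transcripts of a gene. NR2F6, an orphan receptor of the COUP-TF family, was the most abundant, at 165 ± 4.11 FPKM in oeALKBH5 and 167 ± 4.34 FPKM in control (SD, n = 3 each). In control libraries that was 3.13 times the level of the second, the bile acid receptor NR1H4, at 63.6 ± 4.04 FPKM in oeALKBH5 and 53.2 ± 0.899 FPKM in control. PPARG, RXRA and the oxysterol receptors NR1H2 and NR1H3 came next, with control means between 18.1 and 29.7 FPKM. With expressed defined as an FPKM of at least 1 in 3 or more libraries, 27 receptors were expressed (30 at an FPKM of 0.5), and 12 of the 14 that passed were among the 27. The 7 below that level were NR3C2, NR1I3, ESR1, RORA, NR4A3, NR2E3 and ESRRG. NR2E3, a receptor of photoreceptor cells, held 0, 2 and 0 estimated counts in oeALKBH5 libraries and 1, 2 and 0 in control libraries, and ESRRG, an estrogen-related orphan receptor, held 1, 1 and 0 estimated counts in oeALKBH5 libraries and 1, 0 and 1 in control libraries; neither passed the expression filter and neither was tested. Between neighbours in the order of control means, the control libraries overlapped for 12 of 33 pairs, so the order of RXRB and NR2C2, or of THRB and NR0B2, is not set by these libraries.

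**Figure D2:**
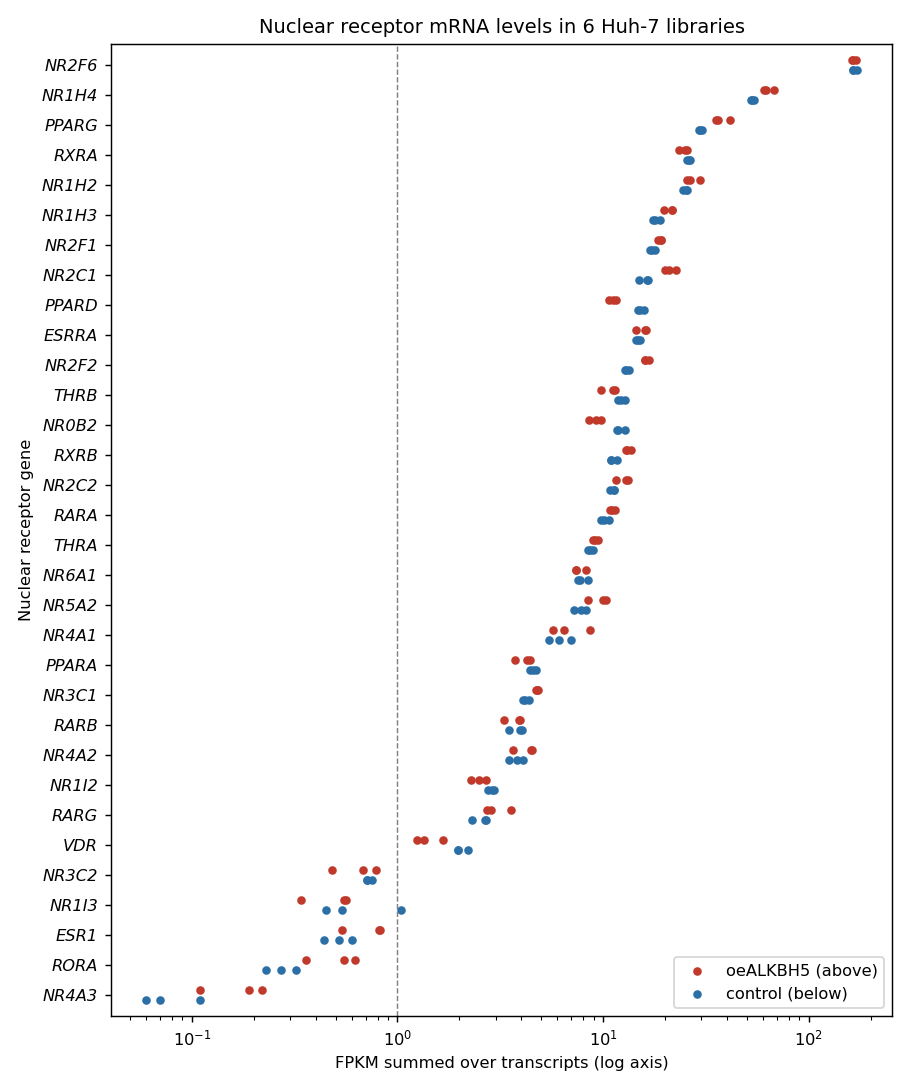
FPKM of the 32 tested receptors in each of 6 libraries (log axis), in the order of control means, with oeALKBH5 libraries drawn above control libraries in each row. NR2F6 lies apart at the top, the dashed line marks an FPKM of 1, and PPARD, NR0B2 and VDR show oeALKBH5 libraries to the left of all control libraries.

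RefSeq promoter windows (GRCh38.p14, the 250 bases before an annotated start) were listed for 28 of the 32 tested receptors, and for 12 of the 14 that passed. The windows of all 5 called receptors with a single listed start are shown, 1 that fell and 4 that rose, because base composition there varied widely among the called receptors. Capitals mark GC boxes (GGGCGG, or CCGCCC on the other strand) and the core motif that many nuclear receptors bind (AGGTCA, or TGACCT on the other strand).
PPARD, fell, chr6:35342308-35342557, plus strand: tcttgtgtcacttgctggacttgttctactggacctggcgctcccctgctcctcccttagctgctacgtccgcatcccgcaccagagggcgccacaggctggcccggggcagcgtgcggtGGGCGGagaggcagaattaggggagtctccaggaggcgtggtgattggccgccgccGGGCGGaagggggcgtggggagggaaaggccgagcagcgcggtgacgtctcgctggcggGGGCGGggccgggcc
NR1H4, rose, chr12:100503110-100503359, plus strand: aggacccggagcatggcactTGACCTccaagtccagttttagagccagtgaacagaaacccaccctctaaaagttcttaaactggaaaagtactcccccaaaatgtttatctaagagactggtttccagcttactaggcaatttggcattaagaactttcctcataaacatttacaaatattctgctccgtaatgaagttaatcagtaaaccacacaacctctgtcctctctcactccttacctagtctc
RORA, rose, chr15:60627531-60627780, minus strand: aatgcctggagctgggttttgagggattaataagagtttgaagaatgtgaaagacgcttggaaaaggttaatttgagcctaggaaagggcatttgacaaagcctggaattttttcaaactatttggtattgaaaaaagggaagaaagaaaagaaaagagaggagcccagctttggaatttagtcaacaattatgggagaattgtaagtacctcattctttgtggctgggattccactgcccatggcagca
NR2C1, rose, chr12:95073619-95073868, minus strand: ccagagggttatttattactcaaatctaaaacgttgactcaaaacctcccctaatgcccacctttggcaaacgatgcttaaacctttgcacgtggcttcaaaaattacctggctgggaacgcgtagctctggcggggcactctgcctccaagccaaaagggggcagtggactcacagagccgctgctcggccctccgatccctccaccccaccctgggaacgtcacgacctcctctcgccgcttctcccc
NR4A3, rose, chr9:99821635-99821884, plus strand: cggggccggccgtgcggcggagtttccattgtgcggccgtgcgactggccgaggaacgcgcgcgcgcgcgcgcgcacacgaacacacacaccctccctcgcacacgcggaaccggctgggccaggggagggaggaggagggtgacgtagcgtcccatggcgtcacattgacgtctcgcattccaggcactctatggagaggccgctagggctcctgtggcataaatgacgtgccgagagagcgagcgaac
The PPARD window held 3 GC boxes and 70.8% G and C, and the NR1H4 window 1 core motif and 42%. The RORA, NR2C1 and NR4A3 windows held neither motif, with 40.0%, 56.4% and 68% G and C.
GC boxes stood in 7 of 7 windows of the 4 receptors that fell and had one listed (PPARA, PPARD, RXRA and THRB), in 1 of 16 windows of the receptors that rose (that of RXRB), and in 23 of 41 windows of 16 receptors that did not pass, against 42.6% of all 35116 windows in the table. The core motif stood in 0 of 7 windows of those that fell, in 5 of 16 of those that rose (in NR1H4, NR5A2 and PPARG) and in 3 of 41 of those that did not pass, against 12.1% of all windows. Median G and C content was 72.8% in the windows of receptors that fell, 52.2% in those of receptors that rose, 59.2% in those that did not pass and 58% over all windows. The ranges overlapped, at 64.4% to 89.2% for receptors that fell and 36% to 68% for those that rose. Windows of the same gene are not independent, and overlapping PPARG windows count the same core motif more than once. Counted by receptor, GC boxes stood in 4 of 4 that fell, 1 of 8 that rose and 12 of 16 that did not pass. Core motifs stood in 0 of 4, 3 of 8 and 3 of 16 of these receptors. These contrasts were noticed after the fold changes were known, several windows of PPARG overlap each other, and which start Huh-7 uses was not tested, so they are given as a description of these windows.

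Among the sensors of bile acids, oxysterols and foreign compounds, 1 of 5 passed, against 42.8% of all genes, and it rose. NR1H4 (Entrez 9971, chr12:100473708-100564413, plus strand) encodes FXR, the bile acid receptor that limits bile acid synthesis. It held 156, 165 and 152 CPM in oeALKBH5 libraries and 140.2, 141 and 141 CPM in control libraries. All oeALKBH5 libraries lay above all control libraries, a 1.12-fold difference with a log2 fold change of 0.16 (edgeR, SE 0.0467, adjusted p = 0.00761); without oeALKBH5 replicate 2 the adjusted p was 0.0549. NR1H3, the oxysterol receptor LXR alpha that raises cholesterol efflux, held 28.5, 28.7 and 31.0 CPM in oeALKBH5 libraries and 27.2, 26.1 and 27.97 CPM in control libraries. The groups did not overlap, but the log2 fold change of 0.12 (edgeR, SE 0.0658, adjusted p = 0.163) did not pass. NR1H3 passed in edgeR with library size alone, at 0.20 (adjusted p = 0.0199), where the median of all genes was 0.085. On log2(FPKM + 1) NR1H3 was higher by 0.20 (limma adjusted p = 0.00992), on a scale where the median of all genes was 0.056. Its exons overlap those of ACP2 on the other strand. NR1H2, which encodes LXR beta, had a log2 fold change of 0.048 (adjusted p = 0.528) and overlapping groups. NR1I2 encodes PXR, the receptor that induces drug-metabolising enzymes, and held 7.95, 7.11 and 7.36 CPM in oeALKBH5 libraries and 8.49, 9.29 and 8.599 CPM in control libraries. Its oeALKBH5 libraries were all below the controls, with a log2 fold change of -0.23 (edgeR, SE 0.105, adjusted p = 0.0770) that did not pass. NR1I3, the related receptor CAR, was scarce, with 11, 12 and 9 estimated counts in oeALKBH5 libraries and 23, 11 and 11 in control libraries, and control replicate 1 stood above the other 5 libraries; its exons overlap TOMM40L on the other strand.

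All 3 fatty acid receptors passed, against 42.8% of all genes, in opposite directions. PPARD and PPARA fell and PPARG rose. PPARD (Entrez 5467, chr6:35342558-35428191, plus strand) encodes PPAR delta, a widely expressed activator of fatty acid oxidation. It held 35.6, 37.3 and 37.1 CPM in oeALKBH5 libraries and 55.9, 52.8 and 52.6 CPM in control libraries. The highest oeALKBH5 library was well below the lowest control library, and the level was 1.47-fold lower, with a log2 fold change of -0.55 (edgeR, SE 0.0563, adjusted p = 1.94e-07). PPARA (Entrez 5465, chr22:46150521-46243756, plus strand) encodes PPAR alpha, the main fasting and fat-burning receptor of hepatocytes. Its values were 39.6, 38.2 and 33.3 CPM in oeALKBH5 libraries and 45.2, 43.5 and 44.3 CPM in control libraries, without overlap, and the log2 fold change was -0.26 (edgeR, SE 0.0648, adjusted p = 0.00316). On the authors' FPKM that difference was not called: PPARA had 4.27, 4.43 and 3.72 FPKM in oeALKBH5 libraries and 4.40, 4.71 and 4.57 FPKM in control libraries, which overlap, and the limma adjusted p on log2(FPKM + 1) was 0.200. PPARG (Entrez 5468, chr3:12287368-12434356, plus strand) encodes PPAR gamma, the receptor that drives fat storage in adipocytes and is low in normal liver. It held 73.6, 65.9 and 65.4 CPM in oeALKBH5 libraries and 58.1, 55.0 and 56.6 CPM in control libraries. Every oeALKBH5 library exceeded every control library, 1.21-fold on average, with a log2 fold change of 0.27 (edgeR, SE 0.0567, adjusted p = 0.000668). The calls of PPARD and PPARG held under all 15 alternatives.

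The shared heterodimer partners split as well. RXRA (Entrez 6256, chr9:134317098-134440585, plus strand), the main RXR of liver, fell, with 133, 124 and 139 CPM in oeALKBH5 libraries and 149, 144 and 150.3 CPM in control libraries and no overlap between groups. Its log2 fold change of -0.16 (edgeR, SE 0.04997, adjusted p = 0.0118) was among the smallest called. That call was lost with library size alone (adjusted p = 0.159), on log2(FPKM + 1) by limma (0.195), without oeALKBH5 replicate 2 (0.107) and without control replicate 3 (0.0584). RXRB (Entrez 6257, chr6:33193588-33200688, minus strand), a widely expressed RXR, rose, with 35.8, 35.5 and 37.5 CPM in oeALKBH5 libraries and 33.4, 31.9 and 31.8 CPM in control libraries and again no overlap. Its log2 fold change was 0.16 (edgeR, SE 0.0602, adjusted p = 0.0357), and the call was lost in DESeq2 (adjusted p = 0.0987), with no filter on low counts (0.0542) and, in edgeR, without oeALKBH5 replicate 2 (0.0521), oeALKBH5 replicate 3 (0.0870), control replicate 2 (0.118) or control replicate 3 (0.131). Exons of RXRB overlap SLC39A7 on the other strand, and reads of the pair cannot be told apart if strand was not used in counting.

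None of the 3 retinoic acid receptors, which turn on differentiation genes when retinoic acid is bound, passed, against 42.8% of all genes. That is 0 of 3 by edgeR, with 0 at an unadjusted p under 0.05, and 0 under each alternative run. RARA held 35.7, 34.8 and 37.3 CPM in oeALKBH5 libraries and 36.6, 33.9 and 33.4 CPM in control libraries, with a log2 fold change of 0.053 (adjusted p = 0.519). RARB and RARG held between 6.32 and 12.6 CPM in all libraries, with log2 fold changes of -0.14 and 0.18 (adjusted p = 0.256 and 0.234). In each of the 3 the groups overlapped. Exons of RARB overlap TOP2B, and those of RARA overlap RARA-AS1, on the other strand.

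Of the 6 steroid, thyroid and vitamin D receptors, 2 passed, against 42.8% of all genes, and both fell. VDR (Entrez 7421, chr12:47841537-47943048, minus strand) encodes the vitamin D receptor, which is low in hepatocytes and also binds lithocholic acid. It held 6.08, 7.32 and 5.58 CPM in oeALKBH5 libraries and 9.35, 9.56 and 8.86 CPM in control libraries, from 117, 141 and 107 estimated counts in oeALKBH5 libraries and 174, 181 and 167 in control libraries. The groups stood apart, at a 1.46-fold lower level in oeALKBH5 and a log2 fold change of -0.55 (edgeR, SE 0.115, adjusted p = 0.000734). THRB (Entrez 7068, chr3:24117153-24495756, minus strand) encodes the thyroid hormone receptor beta, the main thyroid hormone receptor of liver. It held 67.8, 69.7 and 61.5 CPM in oeALKBH5 libraries and 83.4, 79.0 and 81.1 CPM in control libraries. No libraries overlapped and the log2 fold change was -0.29 (edgeR, SE 0.0549, adjusted p = 0.000267); on log2(FPKM + 1) the limma adjusted p was 0.0514. Its partner THRA, which dominates in heart and brain, held 35.3, 36.3 and 36.4 CPM in oeALKBH5 libraries and 36.8, 37.1 and 33.9 CPM in control libraries, with a log2 fold change of 0.0041 (adjusted p = 0.962), whose sign changed when single libraries were left out. NR3C1, the glucocorticoid receptor, held 31.1, 30.5 and 30.3 CPM in oeALKBH5 libraries and 28.4, 29.2 and 27.9 CPM in control libraries. These values did not overlap, but the log2 fold change of 0.10 (edgeR, SE 0.0620, adjusted p = 0.199) did not pass. NR3C1 did pass in edgeR with library size alone, at 0.18 (adjusted p = 0.0246), where the median of all genes was 0.085. NR3C2, the mineralocorticoid receptor, and ESR1, the estrogen receptor alpha, were scarce, with between 29 and 84 estimated counts per library. Their groups overlapped, with log2 fold changes of -0.25 and 0.33 (adjusted p = 0.251 and 0.240). Both THRB and VDR have antisense neighbours (THRB-AS1 and AC121338.1) whose exons overlap theirs.

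Among the receptors with no settled hormone, 4 of 9 tested passed, against 42.8% of all genes, and all 4 rose. NR2F2 (Entrez 7026, chr15:96325938-96340263, plus strand) encodes COUP-TFII, known for roles in vessel and mesenchyme development and in glucose metabolism. It held 83.6, 79.97 and 80.4 CPM in oeALKBH5 libraries and 69.0, 69.6 and 66.6 CPM in control libraries. The groups were far apart relative to their spread, with a log2 fold change of 0.25 (edgeR, SE 0.0498, adjusted p = 0.000458). NR2C1 (Entrez 7181, chr12:95020229-95073703, minus strand) encodes the testicular receptor TR2, a repressor of embryonic globin genes. Its values were 58.7, 62.4 and 57.0 CPM in oeALKBH5 libraries and 45.7, 51.0 and 50.7 CPM in control libraries, without overlap, at a log2 fold change of 0.27 (edgeR, SE 0.0587, adjusted p = 0.000911). RORA (Entrez 6095, chr15:60488284-61229319, minus strand) encodes ROR alpha, an activator of clock and lipid genes. It held 6.19, 5.66 and 3.705 CPM in oeALKBH5 libraries and 2.58, 2.96 and 3.40 CPM in control libraries, from 119, 109 and 71 estimated counts in oeALKBH5 libraries and 48, 56 and 64 in control libraries. The lowest oeALKBH5 library, replicate 3, was just above the highest control library, and the level was 1.74-fold higher with a log2 fold change of 0.80 (edgeR, SE 0.184, adjusted p = 0.00195). At a control mean of 0.273 FPKM, RORA was under the level set for expressed genes, and antisense transcripts, RORA-AS1 among them, overlap its exons. NR5A2 (Entrez 2494, chr1:200027602-200177424, plus strand) encodes LRH-1, which supports bile acid synthesis in liver. Its values were 55.4, 52.8 and 45.6 CPM in oeALKBH5 libraries and 40.8, 45.9 and 44.0 CPM in control libraries. This was the only receptor that passed with overlapping libraries, oeALKBH5 replicate 3 lying just below control replicate 2. The log2 fold change was 0.23 (edgeR, SE 0.0696, adjusted p = 0.0111), and the adjusted p was 0.0529 without oeALKBH5 replicate 2 and 0.0764 without control replicate 1.

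The other 5 orphan receptors tested did not pass. NR2F6, the most abundant receptor, had 276, 277 and 292 CPM in oeALKBH5 libraries and 312, 295 and 296 CPM in control libraries. All oeALKBH5 libraries were below the controls, with a log2 fold change of -0.095 (edgeR, SE 0.0455, adjusted p = 0.101); without oeALKBH5 replicate 3 the adjusted p was 0.0275. NR2C2, the paralog of NR2C1 known as TR4, had 107, 104 and 94.7 CPM in oeALKBH5 libraries and 97.3, 96.8 and 92.6 CPM in control libraries, which overlap. Its log2 fold change was 0.092 (adjusted p = 0.168), and it passed without oeALKBH5 replicate 3 (0.0226) and on log2(FPKM + 1) by limma (0.0477). NR2F1 (COUP-TFI), NR6A1 (a germ cell factor) and ESRRA (an estrogen-related receptor that drives mitochondrial genes) had log2 fold changes of 0.062, -0.12 and 0.0038 (adjusted p = 0.365, 0.103 and 0.967). Of these, NR2F1 passed in edgeR with library size alone, at 0.14 (adjusted p = 0.0384). Exons on the other strand overlap those of NR2C2 (MRPS25 and FGD5-AS1), NR2F1 (NR2F1-AS1) and ESRRA (TRMT112), so their values carry the same doubt over strand as that of RXRB.

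The NR4A receptors are immediate early genes that act without a known ligand. NR4A3 (Entrez 8013, chr9:99821855-99866891, plus strand) encodes NOR1, and it was detected with few counts, 20, 17 and 12 estimated counts in oeALKBH5 libraries and 6, 7 and 10 in control libraries. In CPM these were 1.04, 0.882 and 0.626 CPM in oeALKBH5 libraries and 0.322, 0.370 and 0.531 CPM in control libraries. The groups did not overlap, and the level was 2.07-fold higher with a log2 fold change of 1.05 (edgeR, SE 0.363, adjusted p = 0.0247). This was the only receptor called past 1 on the log2 scale, and the call was lost in DESeq2 (adjusted p = 0.121) and in edgeR without oeALKBH5 replicate 1 (0.108), oeALKBH5 replicate 2 (0.0705), control replicate 1 (0.0987) or control replicate 2 (0.0811). NR4A1, known as NUR77, held 23.7, 17.8 and 15.7 CPM in oeALKBH5 libraries and 19.9, 17.2 and 15.6 CPM in control libraries, and NR4A2, known as NURR1, held 13.7, 13.4 and 11.4 CPM in oeALKBH5 libraries and 11.4, 12.1 and 13.3 CPM in control libraries. Both had overlapping groups and log2 fold changes of 0.12 and 0.064 (adjusted p = 0.573 and 0.616), and without oeALKBH5 replicate 1 the value of NR4A1 was -0.066. NR0B2 (Entrez 8431, chr1:26911489-26913966, minus strand) encodes SHP, an FXR-induced receptor-like protein that has no DNA-binding domain and represses bile acid synthesis through NR5A2. It held 10.4, 9.08 and 10.1 CPM in oeALKBH5 libraries and 14.6, 13.2 and 13.2 CPM in control libraries. All oeALKBH5 libraries were below all control libraries, 1.39-fold on average, at a log2 fold change of -0.47 (edgeR, SE 0.0930, adjusted p = 0.000412). In these libraries NR1H4 and NR5A2 were thus higher while NR0B2 was lower. PPARD, NR0B2, NR2F2, PPARG, VDR, NR2C1 and RORA, 7 of the 14 called, were called in every alternative that gave a value.

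**Figure D3:**
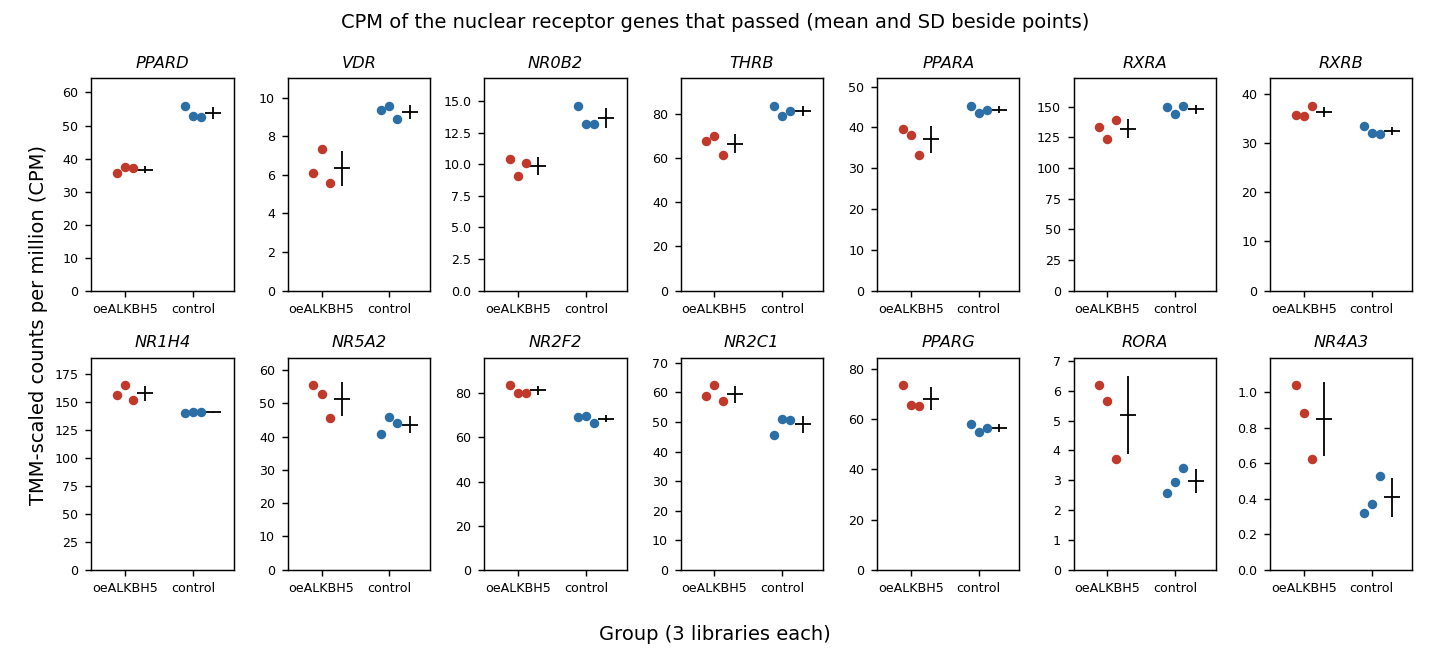
TMM-scaled CPM (y axes from 0) of the 14 receptors that passed, in oeALKBH5 (left in each panel) and control libraries, with the mean and SD beside the points (n = 3 each). Groups do not overlap except for NR5A2, where the lowest oeALKBH5 library is 45.6 CPM and the highest control library 45.9 CPM.

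The balance within subfamilies was read as each gene's share of the summed FPKM of its subfamily, which cancels the scale of a library. Shares come from the same libraries as the calls above, so a shift between members called in opposite directions restates those calls. Within the PPAR group PPARG took 71.1 ± 2.01% in oeALKBH5 and 60.0 ± 0.453% in control, and PPARD took 21.1 ± 1.77% in oeALKBH5 and 30.8 ± 0.590% in control (SD, n = 3 each). PPARA took 7.82 ± 0.566% in oeALKBH5 and 9.21 ± 0.441% in control. None of these shares overlapped between groups, while the summed FPKM of the 3 genes, 52.9 ± 3.00 in oeALKBH5 and 49.5 ± 0.809 in control, did. RXRA took 65.0 ± 0.962% of the FPKM of the RXR pair in oeALKBH5 and 70.1 ± 0.877% in control, again without overlap, and the sum of the pair was 38.0 ± 1.5 in oeALKBH5 and 37.4 ± 0.703 in control. THRB took 54.1 ± 2.03% of the thyroid hormone receptor pair in oeALKBH5 and 58.6 ± 0.640% in control. For the retinoic acid receptors all 3 shares overlapped, with RARA at 62.2 ± 3.30% in oeALKBH5 and 61.4 ± 1.70% in control. NR2F2 took 8.13 ± 0.279% of the COUP-TF group in oeALKBH5 and 6.61 ± 0.194% in control, and NR2F6 took 82.4 ± 0.598% in oeALKBH5 and 84.6 ± 0.538% in control. With 3 libraries against 3 a two-sided exact permutation test cannot give less than 0.1, which is the value for each share that did not overlap. Summed FPKM did not overlap for 3 of the 8 subfamilies, each higher in oeALKBH5 and each at 0.1 in the same exact test. For single genes on CPM, 52.8% of all tested did not overlap, and no such background was drawn up for shares or sums. No gene of the LXR pair or of the retinoic acid receptors passed alone in edgeR with TMM. The NR2C pair (NR2C1 and NR2C2) summed to 33.8 ± 1.97 in oeALKBH5 and 27.1 ± 0.745 in control, the LXR pair to 48.2 ± 1.19 in oeALKBH5 and 43.2 ± 1.13 in control, and the retinoic acid receptors to 17.9 ± 0.455 in oeALKBH5 and 16.6 ± 0.426 in control. Sums, unlike shares, keep the scale of a library, and on log2(FPKM + 1) the median of all genes was 0.056. The other 5 sums overlapped, with 0.2 for the PPAR genes and 0.7 for the RXR pair.

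**Figure D4:**
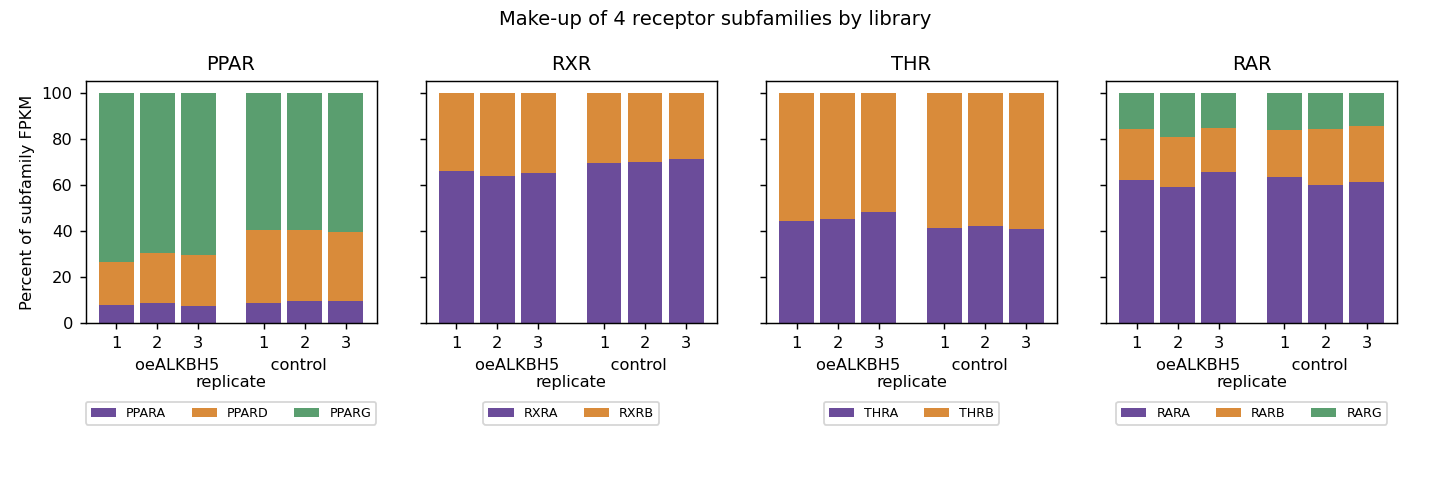
Share of each gene in the summed FPKM of its subfamily (percent, stacked to 100) in each library, with oeALKBH5 replicates left of control replicates in each panel. PPARG fills 71.1% of the PPAR bar on average in oeALKBH5 and 60.0% in control, while the retinoic acid receptor bars overlap.

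The receptor genes have 268 transcripts in the tables, from 1 (NR2F6 and NR2E3) to 32 (THRB) a gene. Of 168 tested, 0 passed in edgeR and 0 in limma-voom, against 1.01% of all 45502 transcripts in edgeR, while DESeq2 called 5 higher and 5 lower. At an unadjusted p under 0.05 edgeR had 10 (5.95%), against 10.7% of all transcripts. In simulated transcripts edgeR recovered 8% of 4-fold changes with 0 false calls, while DESeq2 recovered 44% of them with 550 false calls. The simulation changed 200 transcripts in all, and recovery may differ where more of them change, as the adjustment is then less strict. With that limit, a count of 0 in edgeR says little about these transcripts. The transcripts named next were chosen after their values were seen. The VDR transcript NM_000376.3 had 0.01, 0 and 0 FPKM in oeALKBH5 and 1.62, 0.94 and 0.95 FPKM in control libraries, and NM_001364085.2 had 1, 1.66 and 0.66 FPKM in oeALKBH5 and is listed at 0 in all control libraries. Neither passed (edgeR adjusted p = 0.0700 and 0.0763). The PPARG transcript NM_138711.4 had 12.35, 14.06 and 11.02 FPKM in oeALKBH5 libraries and 4.20, 4.01 and 7.79 FPKM in control libraries (edgeR adjusted p = 0.203). How the estimation divides reads among transcripts of 1 gene was not tested.

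Of 12 other genes of the superfamily, 7 were tested, of which 3 rose and 2 fell (71.4% called, against 42.8% of all genes). NR1D1, the heme-binding clock repressor REV-ERB alpha, rose with a log2 fold change of 0.41 (adjusted p = 0.00443) in edgeR, its relative NR1D2 with 0.17 (adjusted p = 0.0440) and the estrogen receptor beta ESR2 with 1.05 (adjusted p = 0.0218). HNF4G fell with -0.52 (adjusted p = 0.000164), and HNF4A, a master regulator of hepatocyte genes, with -0.12 (adjusted p = 0.0298) in edgeR. NR1D1 lies across THRA on the other strand. The HNF4A call was lost with library size alone (adjusted p = 0.453), on log2(FPKM + 1) by limma (0.450), without oeALKBH5 replicate 2 (0.109) and without each control library (0.0818 to 0.0905). That of ESR2, with under 1 CPM in each library, was lost in DESeq2 (0.129), without oeALKBH5 replicates 1 and 3 (0.0661 and 0.0554) and without control replicates 1 and 3 (0.0764 and 0.0599). The NR1D2 call was lost in DESeq2, with no filter and in edgeR without oeALKBH5 replicates 2 and 3 or any control replicate, with adjusted p up to 0.139.

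Receptor coregulators moved in both directions. Of 18 coactivators 6 rose and 6 fell, and of 12 corepressors 3 rose and 1 fell, which makes 16 of 30 (53.3%) against 42.8% of all genes, with a median log2 fold change of 0.061. PPRC1, a PGC-1 related coactivator, and the acetyltransferase CREBBP rose, with log2 fold changes of 0.29 (adjusted p = 0.000252) and 0.23 (adjusted p = 0.0118) in edgeR. NCOA1, the steroid receptor coactivator SRC-1, and PNRC1 fell, with -0.27 (adjusted p = 0.00101) and -0.20 (adjusted p = 0.00718). Of the corepressors, SPEN rose, with 0.41 (adjusted p = 0.00265), while GPS2, a subunit of the NCOR complex, fell with -0.38 (adjusted p = 7.77e-05). The number of coregulators that rose was 9, but 4, 5 and 4 without control replicates 1, 2 and 3. With library size alone 15 rose and 2 fell, and on log2(FPKM + 1) 9 and 2. CREBBP was not called without control replicate 3 (adjusted p = 0.0545), nor PNRC1 without oeALKBH5 replicate 2 (0.0647), with library size alone (0.0957) and on log2(FPKM + 1) (0.106), nor NCOA1 on log2(FPKM + 1) with no filter (0.0531).

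Genes known to be controlled by the receptors fell more often than they rose. Of 71 tested target genes in 7 lists, 13 rose and 31 fell (62.0% called, against 42.8% of all genes), and with library size alone 16 rose and 24 fell. Several of these lists hold results already seen in these data, so their direction and their share of calls are a description. Of 10 FXR targets tested 2 rose and 3 fell (50% called), with a median log2 fold change of -0.27. SLC51B, a subunit of the basolateral bile acid exporter, had 37.3, 35.9 and 40.3 CPM in oeALKBH5 libraries and 88.7, 85.8 and 83.1 CPM in control libraries, a log2 fold change of -1.18 (edgeR, SE 0.0566, adjusted p = 3.15e-12). KNG1 (kininogen) and FGF19, the hormone that represses bile acid synthesis, fell with -0.60 (adjusted p = 3.39e-09) and -0.59 (adjusted p = 1.92e-06), while BAAT, which conjugates bile acids, and the phospholipid transporter ABCB4 rose with 0.63 (adjusted p = 0.00114) and 0.32 (adjusted p = 0.0110) in edgeR. Without control replicate 2 ABCB4 was not called (adjusted p = 0.0932).

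Of 8 LXR targets tested 7 passed (87.5%, against 42.8% of all genes), each lower in oeALKBH5, with a median of -0.28. The other, ABCG5, had 0.029 (adjusted p = 0.840) in edgeR. LPCAT3, which makes polyunsaturated phospholipids, and SMPDL3A had the smallest p, at log2 fold changes of -0.33 (adjusted p = 6.27e-05) and -0.37 (adjusted p = 0.000238) in edgeR. Neither NR1H2 nor NR1H3 passed in edgeR with TMM, and whether the activity of these receptors changed was not tested. Of 18 PPAR alpha targets 2 rose and 9 fell (61.1% called), with a median of -0.14. FABP1, the liver fatty acid binding protein, had 549, 549 and 573 CPM in oeALKBH5 libraries and 1002, 1035 and 1047 CPM in control libraries, a log2 fold change of -0.88 (edgeR, SE 0.0436, adjusted p = 4.65e-12), and the carnitine carrier SLC25A20 fell with -0.47 (adjusted p = 1.25e-06). PLIN2, a coat protein of lipid droplets, and ANGPTL4, an inhibitor of lipoprotein lipase, rose with 0.52 (adjusted p = 9.84e-08) and 1.01 (adjusted p = 4.56e-07) in edgeR. Both are also known targets of the other PPARs, of which PPARG rose and PPARD fell. Which receptor acts on them here was not tested.

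Of 12 PXR and CAR targets 2 rose and 3 fell (41.7% called, against 42.8% of all genes), with a median of 0.064. UGT1A1, which conjugates bilirubin, and CYP2C8 rose with log2 fold changes of 0.47 (adjusted p = 3.47e-05) and 0.92 (adjusted p = 0.00591) in edgeR, and the drug exporter ABCB1 and SULT2A1 fell with -0.42 (adjusted p = 1.3e-06) and -0.39 (adjusted p = 0.00019). POR, the reductase that serves all microsomal cytochromes P450, fell with -0.15 (adjusted p = 0.0125), a call lost with library size alone, on log2(FPKM + 1) and without oeALKBH5 replicate 2 or control replicate 3 (adjusted p up to 0.230). Without oeALKBH5 replicate 2 CYP2C8 was not called (adjusted p = 0.0527). Of 10 glucocorticoid targets 4 rose and 2 fell (60% called), with a median of -0.0054. PER1 was at 0.38 (adjusted p = 0.000204) and ERRFI1 at 0.28 (adjusted p = 0.000243), against CEBPD at -0.39 (adjusted p = 0.000616) and TAT at -0.39 (adjusted p = 0.0274) in edgeR. ZBTB16 and FKBP5, the GR co-chaperone, also rose, with 0.29 (adjusted p = 0.00879) and 0.22 (adjusted p = 0.0243) in edgeR; FKBP5 lost its call in DESeq2, without oeALKBH5 replicates 2 and 3 and without control replicates 1 and 3 (adjusted p up to 0.121). TAT, a tyrosine-degrading liver enzyme, lost its call in DESeq2 (0.102), with library size alone (0.0745) and without oeALKBH5 replicates 2 and 3 or control replicates 1 and 2 (0.0608 to 0.130).

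Of 9 retinoic acid targets 2 rose and 4 fell (66.7% called, against 42.8% of all genes), with a median of -0.10. Both retinoic acid hydroxylases moved, CYP26A1 down, with 5.77, 5.29 and 6.10 CPM in oeALKBH5 libraries and 11.8, 11.1 and 10.5 CPM in control libraries, and CYP26B1 up, with 59.6, 52.0 and 49.99 CPM in oeALKBH5 libraries and 37.9, 38.9 and 35.9 CPM in control libraries. Their edgeR log2 fold changes were -0.96 (adjusted p = 6.37e-07) and 0.52 (adjusted p = 3.63e-06). RARRES1 rose with 1.18 (adjusted p = 0.00157) in edgeR. TGM2 and PLAAT4 fell as well, with -0.43 (adjusted p = 1.44e-05) and -0.52 (adjusted p = 0.00485) in edgeR. Of 5 thyroid hormone targets 1 rose and 3 fell (80% called), with a median of -0.50. DIO1, the deiodinase that makes active thyroid hormone in liver, had 1.14, 1.04 and 1.30 CPM in oeALKBH5 libraries and 4.46, 4.54 and 3.82 CPM in control libraries, a log2 fold change of -1.87 (edgeR, SE 0.191, adjusted p = 1.94e-07). Malic enzyme ME1 and the gluconeogenic PCK1 fell with -0.50 (adjusted p = 1.96e-07) and -0.98 (adjusted p = 0.00264) in edgeR, and the corepressor HR rose with 0.70 (adjusted p = 0.0154), a call lost in DESeq2 (0.0666) and without control replicates 1 and 2 (0.0937 and 0.0669).

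Genes that supply, carry or remove receptor ligands fell more often than they rose, with 9 lower and 3 higher of 18 tested and a median of -0.22. That is 66.7% called, against 42.8% of all genes, of which 20.8% were higher and 22% lower. The list was chosen with earlier results of these data known and shares DIO1 with the thyroid hormone list, so its direction and its share of calls are a description. GC, the plasma carrier of vitamin D, had 151, 137 and 124 CPM in oeALKBH5 libraries and 327, 305 and 324 CPM in control libraries, with a log2 fold change of -1.21 (edgeR, SE 0.0602, adjusted p = 9.14e-11). RDH10, which makes retinal from retinol, fell with -0.80 (adjusted p = 1.89e-08), and SERPINA7, the thyroxine carrier of plasma, rose with 0.34 (adjusted p = 0.000506) in edgeR. RDH13 rose with 0.20 (adjusted p = 0.0434), but it lost its call in DESeq2 (0.145), with no filter (0.0665), on log2(FPKM + 1) (0.115) and without each library other than oeALKBH5 replicate 3 (0.0653 to 0.142). CYP27B1, which makes active vitamin D, rose with 0.56 (adjusted p = 0.0463), a call lost in DESeq2, with no filter and without oeALKBH5 replicates 1 and 2 or control replicates 1 and 3 (adjusted p up to 0.177). The number that rose was 1 without oeALKBH5 replicates 1 or 2 or control replicates 1 or 3.

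**Figure D5:**
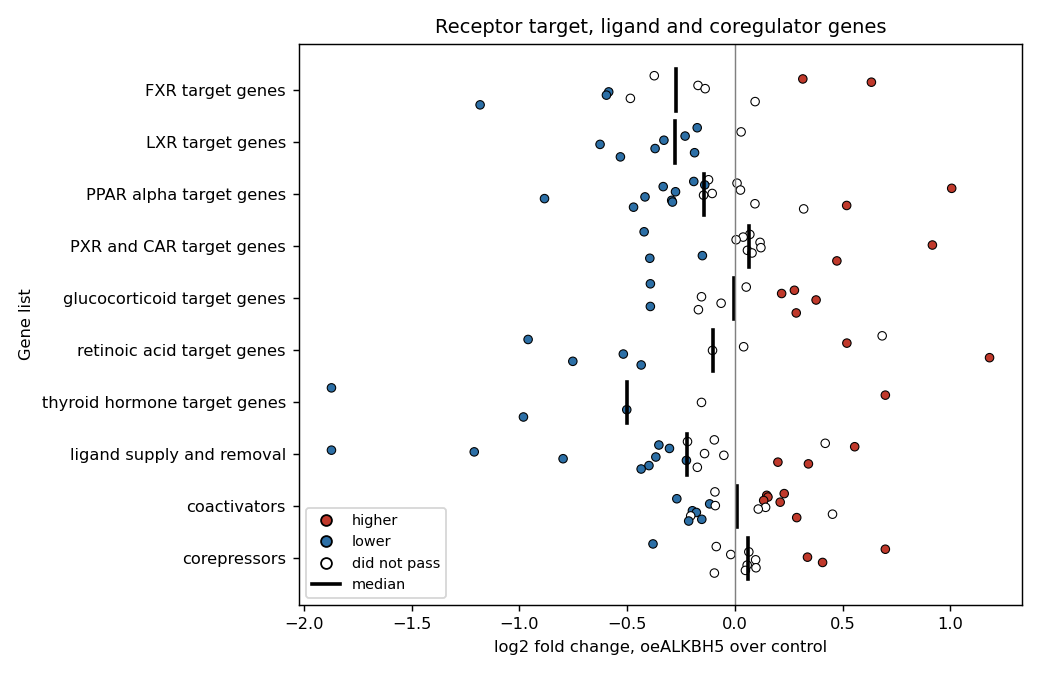
Log2 fold change (oeALKBH5 over control, x axis) of the tested genes in 10 lists of receptor targets, ligand genes and coregulators, with red for higher, blue for lower, white for genes that did not pass and a bar at the median. LXR targets have 7 of 8 points in blue, and the lowest point, DIO1 at -1.87, stands in the thyroid hormone and the ligand list.

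Marker genes of hepatocytes were lower in oeALKBH5, whereas several of the lists above moved in both directions. All 10 listed (AFP, ALB and SERPINA1 the most abundant) were tested and all 10 passed as lower, against 22% of all genes. Their median log2 fold change was -0.48, and their summed levels were 21940.0 to 23577 CPM in oeALKBH5 and 33338 to 33876 CPM in control. The call of HNF4A, one of the 10, was lost under the settings given above. Huh-7 is a cell line, so these sums describe marker gene expression and not amounts of different cell types. In bulk RNA, a change in all cells and a change in some of them cannot be told apart. Summed cholangiocyte markers were at 252 to 283 CPM in oeALKBH5 and 264 to 270.3 CPM in control, and those of macrophages and leukocytes at 138 to 162 CPM in oeALKBH5 and 146 to 150.5 CPM in control. Stellate cell and fibroblast markers summed to 29.6 to 30.6 CPM in oeALKBH5 and 21.96 to 23.46 CPM in control, and endothelial markers to 11.6 to 12.3 CPM in oeALKBH5 and 17.5 to 21.3 CPM in control. Sums can hide opposite changes of single markers. Of 5 cholangiocyte markers tested 2 rose and 1 fell (60% called, against 42.8% of all genes), with a median of 0.30. Of 4 macrophage and leukocyte markers tested 0 rose and 1 fell (25% called). Of 4 stellate and fibroblast markers tested 2 rose and 0 fell, and the only endothelial marker tested fell. None of the markers was at 0 in all libraries. The part of these marker levels in the receptor, target and ligand results was not tested.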

How the data were processed

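For 80668 RefSeq transcripts the authors deposited 2 values, an estimated count that was not scaled between libraries and an FPKM value. The genome build was GRCh38.p13, and RSEM 1.2.8, Bowtie2 2.2.5 and HISAT2 2.1.0 are named as tools, per the submitters' processing notes. What each did, which filters were set and whether counting used strand is not given in the sources used here. Both deposited units were added up per Entrez gene, and the count sums were rounded. Symbols matched 17881 of 18030 genes; the other 149 held 0.0264% of counts.

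All genes were tested with edgeR 4.0.16 (R 4.3.3), using TMM, its expression filter (minimum count 10), a robust quasi-likelihood fit on group alone and Benjamini-Hochberg adjustment over all genes, with a threshold of 0.05, two-sided. Each SE was computed from the log2 fold change and its F statistic. The common coefficient of biological variation was 4.61%. All 6 libraries were kept, since no pair agreed within counting noise. Gene coordinates are from GENCODE 29 (GRCh38) and promoter windows from RefSeq (GRCh38.p14). The receptors and the gene lists were chosen with earlier results of these data known. Every receptor that passed is named, and from each other list up to 2 genes that rose and 2 that fell, by p. NR1D2, FGF19, ABCG5, POR, ZBTB16, FKBP5, TGM2, PLAAT4, PCK1 and CYP27B1 were named after their values were seen. The values of 2 genes that this rule would name are not reported here.

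Alternatives were DESeq2 size factors, library size alone, no filter, limma-voom, DESeq2 1.42.0, a replicate block, limma 3.58.1 on log2(FPKM + 1) and log2(FPKM + 0.1) for genes at an FPKM of at least 1 in 3 libraries or on log2(FPKM + 1) with no filter, and leaving out each library. On the log2(FPKM + 1) scale fold changes of low genes come out too small. The tests were checked on simulated counts of 3 against 3 libraries, with 50 of 14049 genes changed at each fold size: edgeR found 68% of the 1.25-fold, 72% of the 1.5-fold, 88% of the 2-fold and 100% of the 4-fold changes and made 14 false calls. Far fewer genes were changed in the simulation than the 42.8% that passed in the data, so recovery in the data may differ. Estimated counts carry an error of read assignment between like transcripts that these tests do not see. Figures were drawn with matplotlib 3.10.9.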

Additional observations from a re-analysis of the deposited data

How the results depend on the processing

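Leaving out each library in turn gave 2313 to 3067 genes higher and 2565 to 3286 lower, 4 to 8 receptors higher and 5 to 7 lower, 4 to 11 coregulators higher and 5 to 7 lower, 11 to 13 targets higher and 27 to 31 lower, 1 to 3 ligand genes higher and 9 to 10 lower, and 0 receptor transcripts either way. The fewest receptors higher, 4, came without oeALKBH5 replicate 2. Genes lower numbered 2047 with library size alone, 1977 on log2(FPKM + 1), 1974 on log2(FPKM + 0.1) and 1799 on log2(FPKM + 1) with no filter, and receptors lower numbered 3 on each of these FPKM scales. With library size alone 15 coregulators were higher and 2 lower; on the FPKM scales 2, 2 and 1 were lower. Ligand genes higher numbered 1 with no filter, in DESeq2, on log2(FPKM + 1) and on log2(FPKM + 0.1). DESeq2 called 5 receptor transcripts higher and 5 lower. The cause of these differences was not tested. The median log2 fold change of all genes was 0.0062 by TMM, 0.085 with library size alone and 0.056 on log2(FPKM + 1). Signs turned for 4 receptors near 0: with single libraries left out, NR1H2 ran from -0.0026 to 0.084 and NR4A1 from -0.066 to 0.24 (both lowest without oeALKBH5 replicate 1), THRA from -0.038 to 0.027 (negative without replicate 3 of either group) and ESRRA from -0.030 to 0.055 (negative without replicates 2 and 3 of either group). With no filter THRA was at -0.0020 and ESRRA at -0.0024. Over the 14 receptors called, 179 values under an alternative kept the call and 27 lost it, none with a change of sign. No pairing by replicate number was seen (correlations of deviations from -0.034 to 0.043), and whether replicates shared a day or batch is not stated. As a block the replicate numbers gave 3128 genes higher and 3341 lower. They gave 8 receptors higher and 7 lower, with NR6A1 added (edgeR adjusted p = 0.0496), and the call of ALKBH5 itself was lost (0.0538). Precision is limited by low counts for NR4A3, NR1I3 and RORA.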
